A study of Homo sapiens with 27 samples.

Results

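MHC class I antigen presentation was described from 9 of the 26485 genes in the count table, chosen by name: the heavy chains HLA-B, HLA-C, HLA-E and HLA-F, the light chain B2M, the peptide transporter subunit TAP1, the immunoproteasome subunits PSMB8 and PSMB9, and the transactivator NLRC5. RNA was sequenced from T47D cells, an established luminal breast cancer line, that had been given a pHAGE lentivirus and selected as stable pools in puromycin. The control pool carried the empty vector, and the other 3 pools carried a GATA3 truncation mutant with a 3xTy1 tag: Splice del (a splice site deletion at X308), C321fs (a frameshift at C321) or A333fs (a frameshift at A333). Each of the 4 lines gave 3 libraries, and all of them keep the GATA3 of T47D cells itself. Each mutant was 1 pool, so that the mutant and any other feature of its pool cannot be told apart, and the labels do not say that the libraries came from separate cultures, so that p-values measure the spread between these libraries. The growth medium is given differently in the sample labels and in the study's methods and is therefore not settled.

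Every nucleated cell shows peptides from its own proteins on MHC class I molecules. The proteasome cuts proteins into peptides, TAP1 with its partner TAP2 carries them into the endoplasmic reticulum, and there they are loaded on a heavy chain bound to B2M. Interferon raises most of these genes through STAT and IRF factors, replaces proteasome subunits by the immunoproteasome subunits, and induces NLRC5, which acts at class I promoters. In breast epithelium class I molecules let T cells recognize tumor cells, and HLA-E and HLA-F are nonclassical heavy chains that are ligands of receptors on natural killer cells.

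Promoter sequence is shown for 4 stretches that the results turn on. HLA-C and HLA-F were chosen because they share promoter letters and moved differently, and B2M because it was higher in all 3 mutant lines. The stretch between TAP1 and PSMB9 was chosen because it separates the listed exons of these genes, which run in opposite directions and did not move together. The RefSeq promoter table of GRCh38.p14 held 7 of the 9 members and no entry for HLA-E or NLRC5. The stretches end at the base before the first exon that the count table lists. They are HLA-C at chr6:31272137-31272342 on the minus strand, HLA-F at chr6:29723184-29723339 on the plus strand, B2M at chr15:44711267-44711486 on the plus strand, and the PSMB9 side of the gap at chr6:32853972-32854160 on the plus strand. Capitals mark AANNGAAA, the core letters bound by IRF factors, and CCAAT, the letters bound by NF-Y, each on either strand.
HLA-C: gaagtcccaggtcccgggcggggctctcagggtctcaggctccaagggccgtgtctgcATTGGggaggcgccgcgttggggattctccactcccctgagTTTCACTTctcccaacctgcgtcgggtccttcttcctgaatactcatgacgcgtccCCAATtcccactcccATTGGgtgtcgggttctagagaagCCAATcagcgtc
HLA-F: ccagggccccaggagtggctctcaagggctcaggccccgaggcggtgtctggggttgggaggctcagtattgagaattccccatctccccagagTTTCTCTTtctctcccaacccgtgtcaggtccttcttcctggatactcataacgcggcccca
B2M: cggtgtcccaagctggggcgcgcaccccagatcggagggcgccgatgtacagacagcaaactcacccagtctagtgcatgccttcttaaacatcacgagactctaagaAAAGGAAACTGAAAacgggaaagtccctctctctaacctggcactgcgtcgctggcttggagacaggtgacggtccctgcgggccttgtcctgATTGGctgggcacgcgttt
PSMB9: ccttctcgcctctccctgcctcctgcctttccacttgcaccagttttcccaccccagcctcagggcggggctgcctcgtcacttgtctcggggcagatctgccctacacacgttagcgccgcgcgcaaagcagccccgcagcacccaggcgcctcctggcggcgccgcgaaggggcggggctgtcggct

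Over 152 aligned bases, the HLA-C and HLA-F stretches were identical at 122 (80.3%). HLA-C and HLA-F each held 1 match of AANNGAAA, and B2M held 2, which overlap each other. HLA-C held 4 matches of CCAAT and B2M 1. The HLA-F stretch printed here held 0, because it ends where the count table's first exon begins, but the 250 bases before the annotated start of HLA-F held 2, the nearest beginning 57 bases before that start. AANNGAAA occurs in 20.3% of the 35116 promoters when 250 bases before each start are searched, and CCAAT occurs in 32.0% of them. The whole 189 bases between TAP1 and PSMB9 held neither motif. The annotated starts of TAP1 and PSMB9, however, lie inside the spans that the count table lists for them. The 250 bases before the TAP1 start at chr6:32853704 held 2 matches of AANNGAAA and 1 of CCAAT. Those before the TAP1 start at chr6:32852761 held neither. Before the annotated start of PSMB9, the 250 bases held 1 match of CCAAT and 0 of AANNGAAA. The letters that full-length GATA3 prefers (AGATAA, and its forms with T as the first or G as the last letter) were in none of the 4 stretches and are in 22.3% of all promoters. The 250 bases before the TAP1 start at chr6:32853704 held 1 match of them. At peaks of the truncation mutants the study reports a partial motif, WGAT (AGAT or TGAT). In the 250 bases before the annotated start, WGAT had 1 match for HLA-C, 2 for HLA-F and 3 each for B2M and PSMB9. WGAT occurs in 79.1% of all promoters. In the 4 stretches no match of AANNGAAA overlapped a match of CCAAT. A match is a match of letters, and binding was not measured here.

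The members lie on chromosome 6 except for B2M on chromosome 15 and NLRC5 on chromosome 16. In hg38, HLA-B spans chr6:31353872-31357212, HLA-C chr6:31268749-31272136, TAP1 chr6:32845209-32853971 and PSMB8 chr6:32840717-32844935 on the minus strand. HLA-E spans chr6:30489406-30494205, HLA-F chr6:29723340-29727296, PSMB9 chr6:32854161-32859851, B2M chr15:44711487-44718159 and NLRC5 chr16:57017074-57083524 on the plus strand. The counts are fragments on exons. The 7 members of chromosome 6 are also listed on 5 to 7 alternate sequences of the genome, B2M is listed on 1, and NLRC5 on none. Of the exon windows of 150 bases, the share that recurs unchanged on another listed sequence was 50.5% for HLA-B, 69.7% for HLA-C, 100% for HLA-E, TAP1, PSMB8 and PSMB9, 89.2% for HLA-F and 71.9% for B2M. The counting left out fragments with several alignments, so the absolute counts of these genes may be incomplete by an amount that depends on which sequences the aligner used, which the sources do not settle. The strand was not used, and HLA-F shares 257 exon bases with HLA-F-AS1, and TAP1 and PSMB8 share 456 and 226 with PSMB8-AS1. The antisense genes themselves had at most 15 and 21 counts in a library.

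The libraries held 27872208 to 36788024 counted fragments. GATA3, the targeted gene, was measured at 1247 to 1340 CPM (counts scaled to a common library size by TMM) in control libraries, 962 to 1050 with Splice del, 1130 to 1155 with C321fs and 1006 to 1028 with A333fs. Fragments of the introduced mutant count towards GATA3 as well, so this total does not check the labels. The luminal markers were all detected, and their summed level was 18223 to 21447 CPM in control and 12061 to 15008 in the mutant lines, with the keratins KRT8, KRT18 and KRT19, which carry most of the sum, lower in each. Of the 10 luminal markers 3, 1 and 3 were higher and 4, 4 and 5 lower than control in Splice del, C321fs and A333fs at an adjusted p below 0.01. EPCAM was higher in all 3 lines (log2 differences of 0.42, 0.37 and 0.37), ESR1 in Splice del (0.23) and CDH1 in A333fs (0.27). The part of these markers in the members' changes was not tested. In bulk samples, fewer cells of a type and less RNA per cell cannot be told apart. The level of the libraries over the GC content of genes also separated the groups: the slope was 0.153 to 0.233 log2 units per 10 points of GC in the 3 control libraries and -0.171 to 0.0590 in the 9 others. Among these 9, the A333fs libraries (-0.171 to -0.0856) lay below those of Splice del (-0.0670 to 0.0216) and C321fs (-0.0712 to 0.0590). Each member's difference from control is therefore given also with the trend over GC content and exon length removed, an adjustment that cannot tell a technical trend from a biological one. With it removed, EPCAM still passed in all 3 lines (0.31, 0.27 and 0.20). ESR1 in Splice del and CDH1 in A333fs, at 0.10 and 0.17, did not pass (adjusted p = 0.0262 and 0.0275). Of the keratin falls, only that of KRT18 in A333fs, at -0.15, no longer passed (adjusted p = 0.0368). FOXA1 was lower in C321fs and A333fs (-0.30 and -0.38), and with the trend removed it passed as lower in all 3 lines (-0.16, -0.35 and -0.46). PGR did not pass in any line as tested. With the trend removed PGR was lower in all 3 lines and passed (-0.24, -0.36 and -0.31).

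Levels per exon length differed widely between the members. In control libraries B2M stood highest at 261 ± 7.41 CPM per kb (SD, n = 3), ahead of HLA-B at 227 ± 18.1 and HLA-C at 170 ± 13.9. HLA-E reached 40.5 ± 2.79 CPM per kb, TAP1 24.5 ± 1.57, PSMB8 11.2 ± 0.843 and PSMB9 6.45 ± 0.418. HLA-F at 2.36 ± 0.379 and NLRC5 at 0.299 ± 0.0191 CPM per kb were lowest. The ranges of neighbors in this order did not overlap in control. Where the alternate sequences were counted into the gene length, HLA-E and PSMB8 were at 5.79 and 1.40 CPM per kb, lower than before, and the order of the 9 genes was the same.

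**Figure D1:**
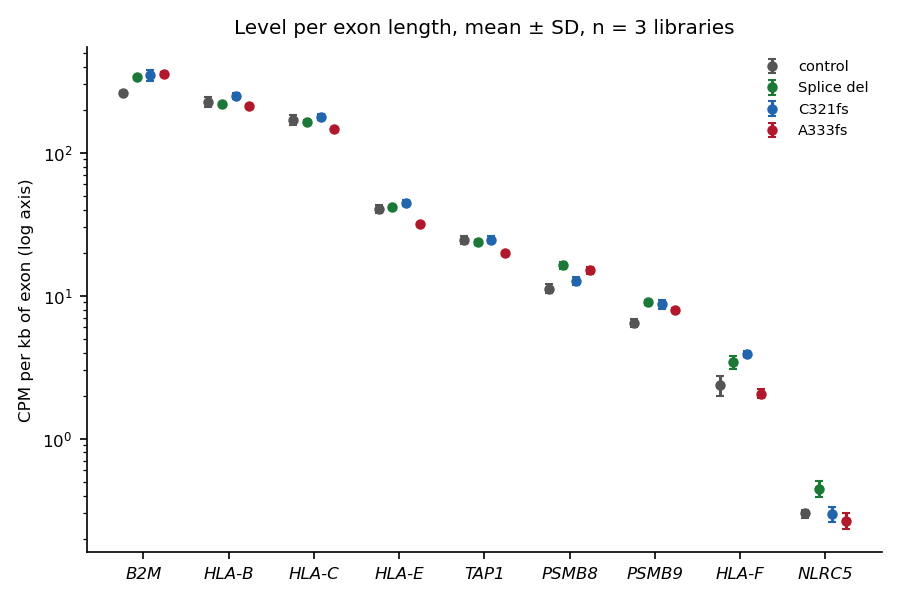
Level of the 9 genes in CPM per kb of exon on a log axis, ordered by the control level, with points for the mean of 3 libraries of a line and bars for 1 SD. B2M, HLA-B and HLA-C lie over 100 CPM per kb in control (261, 227 and 170), and NLRC5 lies at 0.299.

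The comparison with control asks how the genes of this pathway differed in each mutant line. All 9 genes passed the filter on low counts, and 9 of 9 differed somewhere among the 4 lines (edgeR quasi-likelihood F-test, Benjamini-Hochberg adjusted p below 0.01), where 56.2% of all tested genes did. The greatest fold between any lines was 1.90 for HLA-F, 1.67 for NLRC5 and 1.18 for HLA-B. At an adjusted p below 0.01, Splice del had 5 members higher and 0 lower than control (18.7% of all tested genes were higher and 22.4% lower). C321fs had 3 higher and 0 lower (16.1% and 20.7% of all tested genes), and A333fs had 3 higher and 3 lower (21.0% and 26.4%). When a fold change over 1.5 was also required, 0 of 9 members were called in Splice del (10.7% of all tested genes), 1 in C321fs (6.88%) and 0 in A333fs (12.3%). With the GC and length trend removed, 4, 1 and 1 of the 9 members were called in Splice del, C321fs and A333fs, all higher. Of the 14789 tested genes, 698 were then called higher and 336 lower in Splice del. In C321fs these were 480 and 186, and in A333fs 574 and 229. The 3 comparisons share the control libraries.

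**Figure D2:**
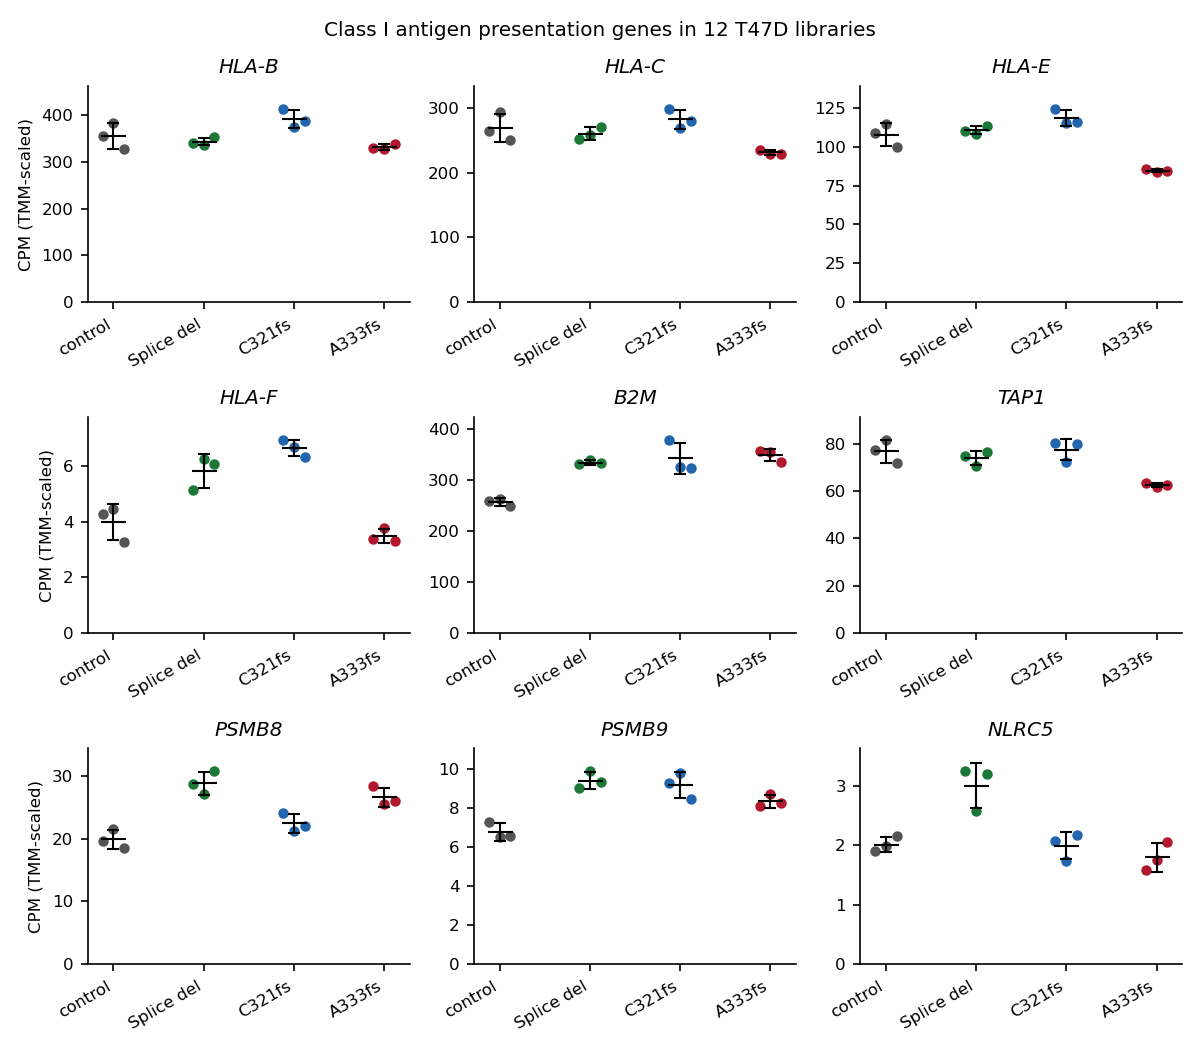
Level of each gene in CPM (scaled by TMM, axes from 0) in the 12 libraries, with a point per library, a dash for the mean and bars for 1 SD. B2M is higher in all 9 mutant libraries (323 to 379) than in control (249 to 264), HLA-E is lower in A333fs (83.7 to 86.1), and NLRC5 is higher in Splice del (2.57 to 3.25) than in the other lines.

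Among the heavy chains, HLA-B and HLA-C, classical chains that present peptides to T cells, differed little in size from control, and which differences passed depended on the GC and length trend. HLA-B was at 357, 384 and 327 CPM in control, 341, 337 and 353 with Splice del, 413, 375 and 388 with C321fs and 329, 328 and 339 with A333fs. The lines overlapped control in each case, and the log2 differences from control of -0.05 ± 0.06 (SE), 0.14 ± 0.06 and -0.10 ± 0.06 did not pass (adjusted p = 0.484, 0.0606 and 0.152). The 95% intervals were -0.18 to 0.07 for Splice del, 0.01 to 0.26 for C321fs and -0.23 to 0.02 for A333fs. With the GC and length trend removed the differences were 0.14, 0.30 and 0.19, so the sign turned in Splice del and A333fs, as it did with upper-quartile factors or library size alone, and those of C321fs and A333fs passed (adjusted p = 3.69e-05 and 0.00279).

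HLA-C was at 265, 294 and 250 CPM in control and at 235, 229 and 230 with A333fs, all below control. It fell by 0.22 ± 0.06 on the log2 scale in A333fs (adjusted p = 0.00524), but with the trend removed the sign turned to 0.10 (adjusted p = 0.0844), and with upper-quartile factors or library size alone the fall did not pass (adjusted p = 0.121 and 0.243). The fall also no longer passed when any 1 of 5 libraries was left out (adjusted p = 0.0104 without control replicate 1, 0.0322 without control replicate 2, and 0.0121, 0.0440 and 0.0185 without A333fs replicates 1, 2 and 3). In Splice del (252, 258 and 271 CPM) and C321fs (299, 270 and 281 CPM) HLA-C overlapped control, at log2 differences of -0.05 ± 0.06 and 0.07 ± 0.06 that did not pass (adjusted p = 0.507 and 0.356). Removing the trend gave 0.15, of the opposite sign, and 0.24, and both passed (adjusted p = 0.00797 and 2.56e-04).

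HLA-E, the nonclassical chain that presents leader peptides of other class I molecules, was the heavy chain that fell most clearly. Its level was 109, 115 and 99.9 CPM in control, 110, 108 and 114 with Splice del, 124, 115 and 116 with C321fs, and 86.1, 83.7 and 84.6 with A333fs. The A333fs libraries were below those of every other line. HLA-E fell by 0.35 ± 0.06 on the log2 scale against control (a fold of 0.786, adjusted p = 8.96e-05), and the difference stayed past the threshold with the trend removed, at -0.18 (adjusted p = 8.58e-04). In Splice del and C321fs it differed by 0.04 ± 0.06 and 0.14 ± 0.06 (adjusted p = 0.591 and 0.0553), and by 0.14 and 0.24 with the trend removed (adjusted p = 0.00552 and 5.06e-05).

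HLA-F, a nonclassical chain of low level, rose in Splice del and C321fs. It was at 4.27, 4.46 and 3.26 CPM in control (94 to 139 fragments), 5.13, 6.26 and 6.09 with Splice del, 6.94, 6.69 and 6.35 with C321fs, and 3.39, 3.80 and 3.32 with A333fs. All libraries of Splice del and C321fs were above control, and those of A333fs overlapped it. HLA-F rose by 0.73 ± 0.12 on the log2 scale in C321fs (1.66-fold, adjusted p = 1.92e-04) and was the member called there. It rose by 0.54 ± 0.12 in Splice del (adjusted p = 0.00180), with adjusted p = 0.0107 without control replicate 3 and 0.0117 without Splice del replicate 2. In A333fs the difference was -0.20 ± 0.13 (adjusted p = 0.216), and 0.00 with the trend removed. In the other lines it was 0.85 (C321fs) and 0.68 (Splice del) with the trend removed.

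B2M, the light chain that all these heavy chains need at the cell surface, was higher in every mutant line. It was at 259, 264 and 249 CPM in control, 331, 339 and 333.3 with Splice del, 379, 327 and 323 with C321fs and 357, 356 and 335 with A333fs, with no overlap with control. The log2 differences were 0.38 ± 0.06, 0.41 ± 0.06 and 0.44 ± 0.06 (1.30-, 1.33- and 1.36-fold, adjusted p = 8.26e-05, 6.24e-05 and 1.67e-05). B2M has the lowest exon GC content of the members, 39.7% against 52.8% to 60.2% for the others and a median of 49.6% over all tested genes. With the GC and length trend removed the differences were 0.13, 0.13 and 0.09 (adjusted p = 0.0571, 0.0638 and 0.186), and none passed.

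TAP1, which pumps peptides into the endoplasmic reticulum, was at 77.5, 81.6 and 71.8 CPM in control and 63.4, 61.8 and 62.4 with A333fs. It fell by 0.30 ± 0.06 on the log2 scale in A333fs (adjusted p = 6.26e-04), whose libraries were all below control. With the trend removed the difference was -0.05 (adjusted p = 0.363), and upper-quartile factors and library size alone gave adjusted p = 0.0158 and 0.0359. In Splice del (74.8, 70.6 and 76.8 CPM) and C321fs (80.4, 72.3 and 80.1 CPM) TAP1 overlapped control, at -0.06 ± 0.06 and 0.01 ± 0.06 (adjusted p = 0.464 and 0.878). Once the trend was removed these were 0.07, of the opposite sign, and 0.14, and neither passed (adjusted p = 0.195 and 0.0166).

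The immunoproteasome subunits rose in most comparisons. PSMB8, which takes the place of the chymotrypsin-like subunit PSMB5, was at 19.6, 21.5 and 18.6 CPM in control, 28.7, 27.1 and 30.8 with Splice del, 24.1, 21.2 and 22.1 with C321fs and 28.4, 25.5 and 26.0 with A333fs. Splice del and A333fs were above control, and C321fs overlapped it. PSMB8 rose by 0.54 ± 0.08 in Splice del and 0.42 ± 0.08 in A333fs on the log2 scale (1.45- and 1.34-fold, adjusted p = 3.41e-05 and 2.46e-04), while C321fs differed by 0.17 ± 0.08 (adjusted p = 0.0730). With the trend removed these became 0.69, 0.66 and 0.30, all past the threshold of p.

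PSMB9, which takes the place of PSMB6, was at 7.26, 6.48 and 6.53 CPM in control, 9.004, 9.87 and 9.30 with Splice del, 9.28, 9.78 and 8.46 with C321fs and 8.07, 8.68 and 8.22 with A333fs. All 9 mutant libraries were above all control libraries. The rises were 0.47 ± 0.09, 0.44 ± 0.09 and 0.30 ± 0.09 on the log2 scale (adjusted p = 2.88e-04, 7.57e-04 and 0.00804), and 0.59, 0.54 and 0.37 with the trend removed. The A333fs rise, which passed the threshold of p alone, no longer passed in 8 of 15 other settings, among them the replicate block (adjusted p = 0.0104), and had adjusted p = 0.0347, 0.0287, 0.0140, 0.0209 and 0.0186 without control replicates 2 and 3 and A333fs replicates 1, 2 and 3.

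NLRC5, the transactivator of class I genes, was counted at 49 to 126 fragments in a library. It was at 1.90, 1.99 and 2.15 CPM in control, 3.25, 2.57 and 3.20 with Splice del, 2.07, 1.73 and 2.17 with C321fs and 1.58, 1.75 and 2.05 with A333fs. Splice del stood above all other lines, which overlapped each other. NLRC5 rose by 0.58 ± 0.15 on the log2 scale in Splice del (1.49-fold, adjusted p = 0.00380), next to the fold limit. This was lost in DESeq2 (adjusted p = 0.0142) and without control replicates 1 or 2 or Splice del replicates 1 or 3 (adjusted p = 0.0178, 0.0151, 0.0235 and 0.0146). C321fs and A333fs differed from control by -0.01 ± 0.16 and -0.16 ± 0.16, and their intervals, -0.35 to 0.33 and -0.50 to 0.18, are wide. After removal of the trend the differences were 0.72 in Splice del, which passed (adjusted p = 3.29e-04), and 0.19 and 0.13 in C321fs and A333fs, of the opposite sign and not past the threshold (adjusted p = 0.349 and 0.543).

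**Figure D3:**
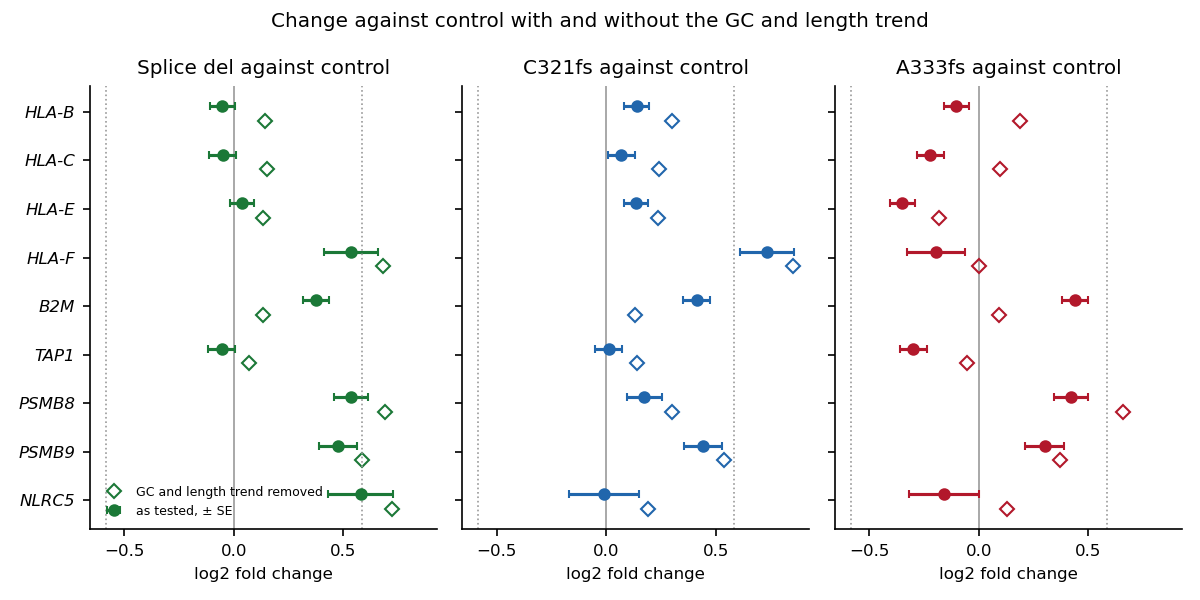
Log2 fold change of each gene against control in the 3 mutant lines, with filled points and bars for the value tested and its SE and open diamonds for the value with the GC and length trend removed. Dotted lines mark a fold of 1.5. B2M moves from 0.38, 0.41 and 0.44 to 0.13, 0.13 and 0.09, whereas the open diamonds of the other 8 genes lie to the right of the filled points.

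Direct comparison of the mutant lines placed A333fs below both other mutant lines for HLA-E, HLA-F and TAP1. Against C321fs, 0 of 9 members were higher and 5 lower in A333fs (6.80% and 8.89% of all tested genes), and 1 passed the fold limit too (5.55%). Against Splice del, 0 were higher and 4 lower (4.63% and 7.29%), and 2 passed the fold limit (3.0%). Between Splice del and C321fs, 1 member was higher in Splice del and 0 lower (4.18% and 2.14%), and 0 passed the fold limit (2.64%).

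HLA-F in A333fs was below C321fs by a log2 difference of -0.93 ± 0.12 (a fold of 0.525, adjusted p = 4.38e-05) and below Splice del by -0.73 ± 0.13 (a fold of 0.602, adjusted p = 6.92e-04). HLA-E followed, at -0.48 ± 0.06 against C321fs and -0.39 ± 0.06 against Splice del (adjusted p = 1.18e-05 and 2.23e-04). These 4 differences passed in all 15 other settings, and with the trend removed they were -0.85, -0.68, -0.42 and -0.32. HLA-B and HLA-C were lower in A333fs than in C321fs by -0.24 ± 0.06 and -0.29 ± 0.06 (adjusted p = 0.00681 and 0.00220). With the trend removed they differed by -0.11 and -0.14 (adjusted p = 0.0736 and 0.0220). Against Splice del, HLA-B and HLA-C differed by -0.05 ± 0.06 and -0.17 ± 0.06 and did not pass (adjusted p = 0.582 and 0.0525), and HLA-B turned to 0.05 with the trend removed. The difference of HLA-B from C321fs no longer passed in 11 of 15 other settings, among them those without C321fs replicates 1 or 3 or A333fs replicates 1, 2 or 3 (adjusted p = 0.0187, 0.0103, 0.0274, 0.0490 and 0.0182), and HLA-C had adjusted p = 0.0160 and 0.0115 without A333fs replicates 2 and 3.

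TAP1 was lower in A333fs than in C321fs by -0.31 ± 0.06 and than in Splice del by -0.24 ± 0.06 (adjusted p = 0.00142 and 0.00978). Removal of the trend took these to -0.19 and -0.13, and the difference from Splice del did not pass (adjusted p = 0.00272 and 0.0434). Without A333fs replicate 2 these were at adjusted p = 0.0115 and 0.0552, and the difference from Splice del was lost when any 1 of the 6 libraries was left out (adjusted p = 0.0147 to 0.0552). NLRC5 was lower in A333fs than in Splice del by -0.74 ± 0.15 (a fold of 0.600, adjusted p = 0.00240). It was lost without Splice del replicates 1 or 3 or A333fs replicates 1 or 2 (adjusted p = 0.0168, 0.0124, 0.0148 and 0.0107). Splice del exceeded C321fs by 0.59 ± 0.15 for NLRC5, which did not pass (adjusted p = 0.0146). Both were smaller after the trend was removed, at -0.59 and 0.53 (adjusted p = 0.00482 and 0.0114).

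PSMB8 was higher in Splice del than in C321fs by 0.36 ± 0.08 (adjusted p = 0.00489). It no longer passed in the fit of these libraries alone and without Splice del replicates 1 or 3 or C321fs replicates 2 or 3 (adjusted p = 0.0106, 0.0202, 0.0295, 0.0320 and 0.0139). A333fs exceeded C321fs by 0.25 ± 0.08 for PSMB8, which did not pass (adjusted p = 0.0255). Both passed after the trend was removed, at 0.39 and 0.35 (adjusted p = 3.51e-05 and 7.10e-05). For B2M the greatest difference between mutant lines was 0.06 on the log2 scale, and the 95% intervals of these 3 differences lay between -0.16 and 0.19.

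Ratios within a library, chosen after the values were seen, set each immunoproteasome subunit beside the subunit that it replaces. On the scale of CPM per kb, the log2 ratio of PSMB8 to PSMB5 was -3.10, -3.09 and -3.11 in control, -1.95, -2.03 and -1.90 with Splice del, -2.49, -2.57 and -2.41 with C321fs and -2.22, -2.32 and -2.32 with A333fs. Every mutant library was above control, by 2.20-, 1.52- and 1.76-fold on average. The ratio of PSMB9 to PSMB6 rose in the same manner, from -4.66, -4.98 and -4.83 in control to -3.72, -3.60 and -3.72 with Splice del, -4.02, -3.84 and -3.97 with C321fs and -4.11, -3.98 and -4.07 with A333fs. These are 2.21-, 1.84- and 1.70-fold. For each of these 6 differences the two-sided exact permutation p was 0.1, the smallest that 3 against 3 libraries allow. With the GC and length trend removed, the log2 differences were 1.24, 0.69 and 1.04 for PSMB8 and 1.09, 0.84 and 0.70 for PSMB9.

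Part of this shift lay in the replaced subunits. PSMB5 fell by 0.60 ± 0.06, 0.43 ± 0.06 and 0.39 ± 0.06 on the log2 scale in Splice del, C321fs and A333fs (adjusted p = 1.43e-06, 4.97e-05 and 5.08e-05). PSMB6 fell by 0.67 ± 0.06, 0.44 ± 0.06 and 0.47 ± 0.06 (adjusted p = 3.11e-07, 2.62e-05 and 6.29e-06). For the immunosubunit PSMB10, the ratio to PSMB7 differed from control by 0.17, 0.06 and 0.19 on the log2 scale (exact permutation p = 0.1, 0.8 and 0.2). This ratio differed by 0.38, 0.24 and 0.58 after the trend was removed, and whether it moved less than the other 2 ratios was not tested. PSMB10 itself fell by 0.41 ± 0.10 and 0.40 ± 0.10 in Splice del and C321fs (adjusted p = 0.00182 and 0.00270). With the trend removed PSMB10 was at -0.17, -0.21 and 0.24 against control, of which the last passed (adjusted p = 0.00398).

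**Figure D4:**
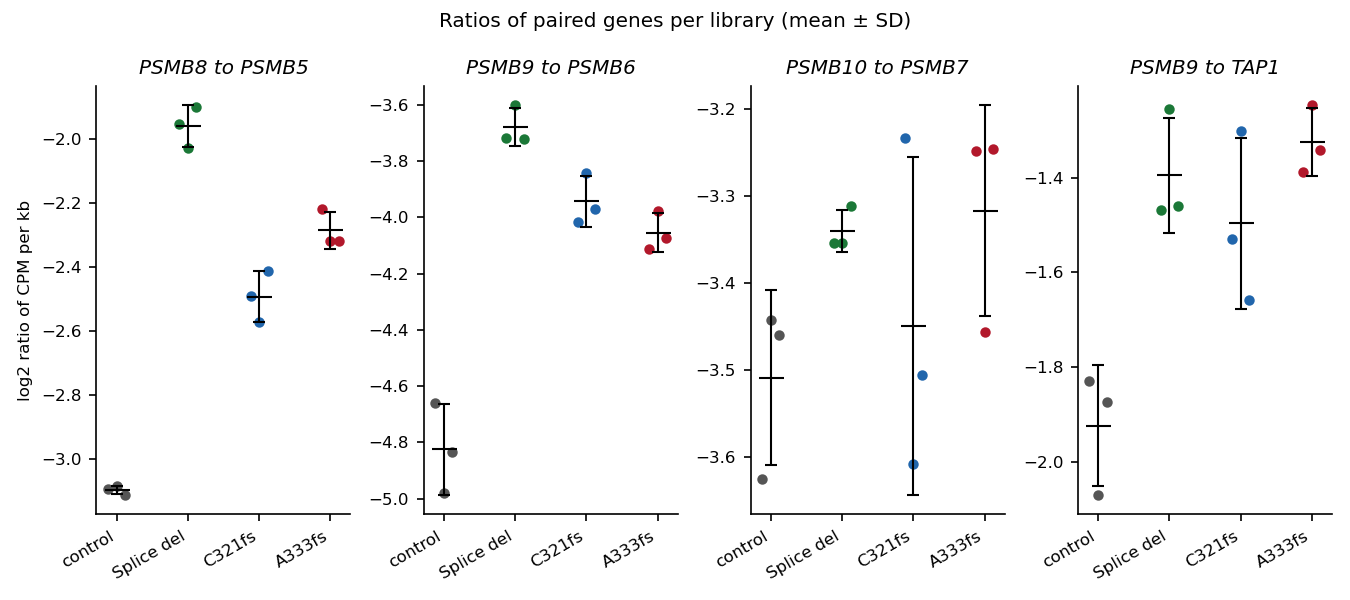
Log2 ratio of the CPM per kb of paired genes in each library, with a point per library, a dash for the mean of 3 and bars for 1 SD. PSMB8 to PSMB5 moves from about -3.10 in control to -1.96, -2.49 and -2.29, and PSMB9 to TAP1 from -1.92 to -1.39, -1.50 and -1.32, while PSMB10 to PSMB7 overlaps control in C321fs and A333fs.

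PSMB9 and TAP1, whose exons in the count table bound the stretch shown above, did not move together. The log2 ratio of PSMB9 to TAP1 was -1.83, -2.07 and -1.87 in control, -1.47, -1.25 and -1.46 with Splice del, -1.53, -1.30 and -1.66 with C321fs and -1.39, -1.25 and -1.34 with A333fs. All mutant libraries were above control, by 0.53, 0.43 and 0.60 on average (exact permutation p = 0.1 each), and by 0.52, 0.40 and 0.43 with the trend removed. The ratio of B2M to HLA-B rose by 0.43, 0.27 and 0.54, but with the trend removed the differences were -0.01, -0.17 and -0.09.

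Other genes of the pathway were counted over 7 lists, of which 105 of 124 genes were tested. In Splice del 44 were higher and 9 lower than control at an adjusted p below 0.01, in C321fs 36 and 11, and in A333fs 33 and 15, against the shares of all tested genes given above. With the fold limit 28, 22 and 16 were called (26.7%, 21.0% and 15.2% of the 105), of which 20, 20 and 11 were interferon-stimulated genes. Among the other 73 genes 8, 2 and 5 were called (10.96%, 2.74% and 6.85%), against 10.7%, 6.88% and 12.3% of all tested genes.

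Of 15 other heavy chains and class I-like genes, 2, 3 and 2 were higher and 0, 0 and 2 lower in Splice del, C321fs and A333fs. Beside these counts and those of the next lists stand the shares of all tested genes. These were 18.7%, 16.1% and 21.0% higher and 22.4%, 20.7% and 26.4% lower. Differences of the lists from these shares were not tested. AZGP1, which encodes a soluble protein with a class I fold, rose from 88.3 CPM in control to 489, 160 and 266 (log2 2.47 ± 0.07, 0.86 ± 0.06 and 1.59 ± 0.06, adjusted p = 2.41e-13, 2.07e-07 and 4.88e-11). Of 14 peptide loading and trimming genes, 5, 2 and 6 were higher and 1, 2 and 4 lower. ERAP2, an aminopeptidase that trims peptides in the endoplasmic reticulum, rose from 6.78 CPM to 12.8, 9.96 and 12.2 (adjusted p = 8.06e-06, 0.00106 and 1.28e-05). With the trend removed its log2 differences were 0.60, 0.29 and 0.53, and that of C321fs did not pass (adjusted p = 0.0243). TAPBPL, a relative of tapasin that edits the peptides bound to class I, was at 0.256 CPM in control and 0.742, 0.622 and 0.680 in the mutants, and the rise passed in Splice del and A333fs (adjusted p = 0.00276 and 0.00515). With the trend removed the rise in C321fs passed too (adjusted p = 0.00622). Of 9 proteasome partners, 1, 0 and 1 were higher and 5, 5 and 4 lower, PSMB5 and PSMB6 among the lower.

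Of 15 transcription factors of class I genes, 7, 3 and 6 were higher and 3, 3 and 3 lower. IRF9, a subunit of the complex that carries the type I interferon signal, rose by 1.15 ± 0.13, 1.58 ± 0.12 and 0.48 ± 0.13 on the log2 scale (adjusted p = 2.90e-06, 3.72e-07 and 0.00479). IRF1, which binds class I promoters, rose by 0.62 ± 0.11 in Splice del and 0.59 ± 0.11 in A333fs (adjusted p = 2.43e-04 and 3.27e-04) and differed by 0.31 ± 0.12 in C321fs (adjusted p = 0.0361). With the trend removed the difference in C321fs was 0.38 and passed (adjusted p = 0.00841). Of 13 genes of the interferon receptors and the signaling next to them, 4, 4 and 4 were higher and 0, 1 and 1 lower, and 0 passed the fold limit in any line.

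Interferon-stimulated genes made up most of the calls among the pathway genes, and their difference from the members was not tested. Of the 32 tested genes 24, 23 and 13 were higher and 0, 0 and 1 lower, and their median log2 difference was 1.07, 1.18 and 0.66, where that of all genes was 0.03, 0.02 and 0.01 and that of the 9 members 0.38, 0.14 and -0.16. With the trend removed the medians of the list were 1.00, 0.95 and 0.54, and those of the members 0.15, 0.24 and 0.10. This list was written with results on interferon genes in these data known, so its direction is no independent evidence. PARP14, an ADP-ribosyltransferase, and DTX3L, a ubiquitin ligase, rose in all 3 lines (PARP14 by 1.06 ± 0.12, 0.91 ± 0.12 and 0.89 ± 0.12 on the log2 scale), and so did IFIT5 and LGALS3BP. With the trend removed the IFIT5 rise in A333fs was 0.32 and did not pass (adjusted p = 0.0342). The other rises of these genes still passed. IFITM1 rose by 0.82 ± 0.12 and 1.24 ± 0.11 in Splice del and C321fs and differed by 0.24 ± 0.12 in A333fs (adjusted p = 2.85e-05, 1.63e-06 and 0.0957). Compared directly, A333fs had 14 of the 32 genes lower and 0 higher than C321fs, and 4 lower and 0 higher than Splice del.

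**Figure D5:**
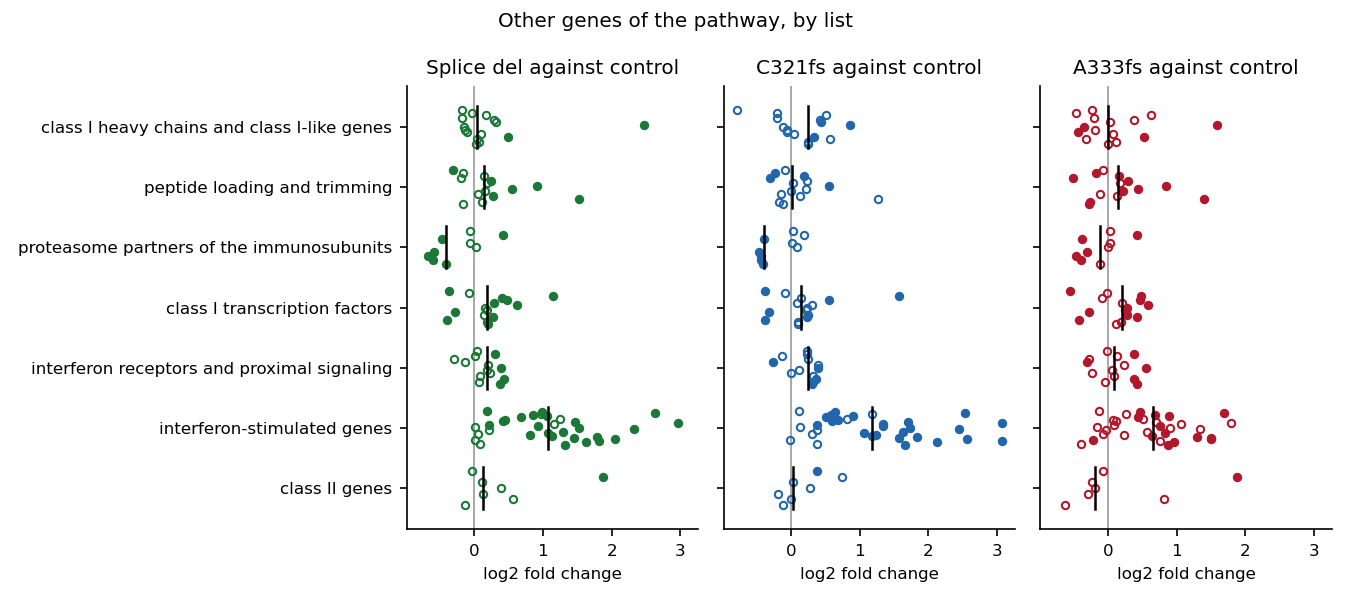
Log2 fold change against control of the tested genes in 7 lists, with filled points for an adjusted p below 0.01, open points for the rest and a bar for the list's median. The interferon-stimulated genes are centered at 1.07, 1.18 and 0.66, and the proteasome partners at -0.41, -0.40 and -0.11.

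Cells of other types could carry class I transcripts as well. Of 9 immune markers 3 passed the filter, and the summed level of the list was 5.60 to 7.50 CPM in control, 6.97 to 8.99 with Splice del, 6.09 to 7.32 with C321fs and 6.19 to 7.33 with A333fs. CD14 rose among them, from 0.682 CPM to 2.50 in Splice del and 1.30 in A333fs (adjusted p = 1.03e-06 and 0.00101). Its part in the members' changes was not tested. The 3 endothelial markers summed to at most 0.0957 CPM in any library.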

How the data were processed

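RNA-seq of 12 libraries was used, and the 15 ChIP-seq samples were not analysed here. The deposited values are whole-number counts of fragments per gene, not normalized. Per the study's methods the authors removed adapters and poor bases with Trimmomatic, mapped the reads on hg38 and used featureCounts (1.6.4 per the file header, paired, without strand). The submitters' notes name HISAT2, while the header names an alignment by STAR, so the aligner is not settled. Genes kept by filterByExpr (14789 of 26485) were scaled by TMM. In R 4.3.3, edgeR 4.0.16 (glmQLFit, glmQLFTest) fitted 1 model of all 12 libraries with a coefficient for each line, and p-values were adjusted by Benjamini-Hochberg over all tested genes. A gene passed at an adjusted p below 0.01 and was called when its fold change was also over 1.5. Levels are CPM, divided by exon length on the primary chromosome where genes are compared. Between libraries the common dispersion of 0.00453 gives a coefficient of variation of 6.73%.

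The trend of each library over exon GC content and length was removed by loess (span 0.3) and entered as offsets. Replicate numbers did not pair libraries: the correlation of residuals averaged -0.00915 over 18 pairs of same-numbered libraries (-0.123 to 0.165). Other settings were RLE, upper-quartile or no scaling factors, no filter or at least 10 counts in every library, the libraries of 2 lines alone, DESeq2 1.42.0, a replicate block, calls without the fold limit, an adjusted p of 0.05, and each library of the compared lines left out. Counts were also simulated with 2-fold changes in 200 of 14789 genes. For Splice del against control, 177 were recovered with 0 false calls, with or without removal of the trend. With a GC trend added to the simulation, the fit without removal recovered 177 but made 91 false calls, and 89 calls in a line left unchanged. With removal it recovered 179, with 1 false call and 0 calls in the unchanged line. Calls made without removal can thus be false under such a trend.

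Named were the 9 genes, at most 5 called genes of each other list with the smallest adjusted p, the 5 genes most like the members in profile, and GATA3. The choice of PSMB10, EPCAM, ESR1, CDH1, FOXA1, PGR, HLA-DMA and IFI30 came after seeing their values. The members, lists, tests and the letters of the motifs were chosen with earlier results of these data known.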

Additional observations from a re-analysis of the deposited data

Results flagged for a closer look

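Differences between mutant lines were tested directly, as the contrast of the lines in the fit of all libraries, and the 10 that passed an adjusted p of 0.01 in edgeR's quasi-likelihood test are listed. PSMB8 was higher in Splice del than in C321fs by 0.36 on the log2 scale. For A333fs minus C321fs, the log2 difference was -0.24 for HLA-B, -0.29 for HLA-C, -0.48 for HLA-E, -0.93 for HLA-F and -0.31 for TAP1. For A333fs minus Splice del, it was -0.39 for HLA-E, -0.73 for HLA-F, -0.24 for TAP1 and -0.74 for NLRC5. In each of these 10 differences the 3 libraries of one line lay wholly on one side of the 3 of the other.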

How the results depend on the processing

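Upper-quartile factors and library size alone shifted the median log2 difference of all genes from control to 0.12, 0.11 and 0.12 and to 0.22, 0.19 and 0.16 in Splice del, C321fs and A333fs, so values under them stand relative to these shifts. Members called in Splice del against control were 0, but 3 with upper-quartile factors, 4 with library size alone, 1 with at least 10 counts in every library, 4 with the GC and length trend removed, 5 with no minimum fold change, and 0 to 2 with a library left out (2 without control replicate 2). In C321fs the 1 member called became 2 with library size alone and 3 with no minimum fold change, and in A333fs 0 became 1 with library size alone, 1 with the trend removed and 6 with no minimum fold change. Between lines, Splice del against C321fs went from 0 to 1 with no filter, with an adjusted p of 0.05 and with no minimum fold change, A333fs against C321fs from 1 to 5 with no minimum fold change, and A333fs against Splice del from 2 to 4 with no minimum fold change and to 1 to 2 with a library left out (1 without Splice del replicates 1 or 3 or A333fs replicates 1 or 2). The calls among all tested genes are given above for the comparisons with control with the trend removed, and for no minimum fold change. For the other settings they are not given, so those counts of members have no background beside them. Other pathway genes called went from 28, 22 and 16 to 53, 47 and 48 with no minimum fold change, and in A333fs to 26 with library size alone. Over the 37 differences of members in the text, 452 of 555 values kept their direction and their side of the threshold, 63 lost it, 12 gained it and 28 turned sign. Signs turned only for differences that did not pass, HLA-C in A333fs excepted. In Splice del, HLA-B, HLA-C and TAP1 went to 0.0388, 0.0404 and 0.0344 with upper-quartile factors, 0.136, 0.138 and 0.132 with library size alone and 0.143, 0.154 and 0.0717 with the trend removed. With a library left out HLA-B ranged from -0.109 to 0.00527, HLA-C from -0.102 to 0.0141 (both turned without control replicate 2) and HLA-E from -0.0149 (without control replicate 3) to 0.0825. In C321fs, TAP1 went to -0.00335 in DESeq2 and ranged from -0.0359 to 0.0600 with a library left out (turned without control replicate 3 or C321fs replicates 1 or 3), and NLRC5 went to 0.0744 with upper-quartile factors, 0.156 with library size alone, 0.00627 with at least 10 counts and 0.191 with the trend removed and ranged from -0.0766 to 0.0738 with a library left out (turned without control replicate 3 or C321fs replicate 2). In A333fs, HLA-B went to 0.0106, 0.0469 and 0.189 with upper-quartile factors, library size alone and the trend removed, and the trend's removal took HLA-C to 0.0995, HLA-F to 0.00231 and NLRC5 to 0.130. With the length over all listed sequences the control levels were 37.8, 24.4, 5.79, 0.351, 130, 3.06, 1.40 and 0.806 CPM per kb for HLA-B, HLA-C, HLA-E, HLA-F, B2M, TAP1, PSMB8 and PSMB9. The replicate block left the members called at 0, 1 and 0 against control, and among the members' differences 3 no longer passed under it: PSMB9 in A333fs, and HLA-B and TAP1 between A333fs and C321fs or Splice del, respectively. No other pass or call of a member changed under it. The causes of these changes were not tested. Depth limits NLRC5 (49 to 126 fragments a library) and HLA-F (94 to 228) most.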

Other observations

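Class II genes present peptides from outside the cell. Of 14 listed genes 7 passed the filter, among them HLA-DMA at 20.2 CPM and IFI30 at 18.1 CPM in control. Of these 7, 1 was higher and 0 lower in each mutant line at an adjusted p below 0.01 in edgeR's quasi-likelihood test. Of all tested genes, 18.7%, 16.1% and 21.0% were higher and 22.4%, 20.7% and 26.4% lower in Splice del, C321fs and A333fs. CTSS, a protease that processes the class II invariant chain, was at 0.177 CPM in control, 0.661 with Splice del, 0.304 with C321fs and 0.662 with A333fs, a rise of 1.88 ± 0.45 and 1.89 ± 0.45 on the log2 scale in Splice del and A333fs (adjusted p = 0.00225 and 0.00196). With the trend over GC content and length removed these were 1.55 and 1.56.

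Markers of other cell types moved as well. Of the basal markers, KRT14 was at 0.0113 CPM in control and 0.569 with A333fs, and ACTA2 rose from 13.2 to 20.2 CPM there (adjusted p = 7.82e-05). TP63 rose from 0.301 to 0.769 CPM in C321fs (adjusted p = 0.00827), which did not pass with the GC and length trend removed (adjusted p = 0.0231). The fibroblast marker COL3A1 fell by 1.09 ± 0.13, 1.03 ± 0.13 and 1.65 ± 0.14 on the log2 scale in Splice del, C321fs and A333fs, and COL1A1 fell by 0.35 ± 0.09 and 0.83 ± 0.09 in C321fs and A333fs. With the trend removed COL3A1 was at -1.08, -0.95 and -1.59. COL1A1 was then at -0.14 in C321fs, which did not pass (adjusted p = 0.112), and -0.46 in A333fs, which did (adjusted p = 4.12e-05). Of the luminal markers, TFF1 rose by 0.65 ± 0.15 in Splice del and 1.02 ± 0.15 in A333fs. In C321fs TFF1 differed by -0.27 ± 0.17, which did not pass (adjusted p = 0.196).

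The genes whose level over the 12 libraries was most like the mean profile of the 9 members were LPPR3 (Pearson r = 0.96), S1PR2 (0.96), ARHGEF25 (0.95), CCDC114 (0.94) and SLC23A1 (0.94). The libraries fall into 4 lines and share depth and GC trend, so r is a description. With the median profile in place of the mean, 3 of these 5 were again among the first 5. S1PR2, a receptor for sphingosine 1-phosphate, was higher in Splice del and C321fs by 0.79 and 0.88 on the log2 scale and differed by -0.04 in A333fs.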
